A study of Mus musculus with 9 samples.

Results

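The genes described here are the cyclins of types A, B, D and E in the mouse genome, namely *Ccna1*, *Ccna2*, *Ccnb1*, *Ccnb2*, *Ccnb3*, *Ccnd1*, *Ccnd2*, *Ccnd3*, *Ccne1* and *Ccne2*. They are 10 of the 37273 genes, 22367 of them protein-coding, that GENCODE release M1 places on mouse build mm9 (NCBIM37). Membership was set by gene name and not by a measured value, although earlier results of these data were known. Each gene was asked for a BAP1 peak whose middle lay within 1 kb of any of its annotated transcription start sites (TSSs), called gene-proximal here, and otherwise for its nearest peak up to 50 kb away.

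BAP1 binding was mapped by ChIP-Seq in Ba/F3, a mouse B cell precursor line that depends on the cytokine IL-3. Of the 9 samples of the series, 2 are the immunoprecipitations behind the peak list used here. One is wild-type Ba/F3 immunoprecipitated with an antibody to BAP1, and the other is a Ba/F3 line that stably expresses BAP1 with a triple FLAG tag under puromycin, immunoprecipitated with an antibody to FLAG. The tagged protein comes from a transgene, each immunoprecipitation was sequenced once, and both samples stand in 1 list of 13164 intervals of 200 bp with no height or score, so that no value below has a replicate error and the strength of a peak is unknown.

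Cyclins are the regulatory subunits of cyclin-dependent kinases (CDKs), and their rise and fall drives the cell division cycle. D-type cyclins pair with CDK4 and CDK6 in G1 in response to growth signals, E-type cyclins with CDK2 at the entry into S phase, A-type cyclins with CDK2 and CDK1 in S and G2 phase, and B-type cyclins with CDK1 in mitosis. BAP1 is a deubiquitinase that removes ubiquitin from histone H2A and acts on chromatin as part of a larger complex. A peak shows where BAP1 was found on DNA and says nothing of how much of a cyclin is made.

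A gene-proximal BAP1 peak was present at 7 of the 10 cyclin genes. These were *Ccnd2*, *Ccnd3*, *Ccne1*, *Ccne2*, *Ccna2*, *Ccnb1* and *Ccnb2*. No gene-proximal peak was listed for *Ccnd1*, *Ccna1* and *Ccnb3*. The share of the cyclins with such a peak was 70.0%, beside 39.6% of all protein-coding genes and 26.2% of all annotated genes. It was 71.0% of the protein-coding genes with a promoter CpG ratio above 0.6, a measure described further on. All cyclins but *Ccnd2* and *Ccnd3* had such a ratio at the start site used, so their share was close to that of like promoters. Both E-type cyclins had one, whereas the D, A and B types each had 1 member without one.

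The sequences under the peaks are given for the bound cyclins on which the account below turns, as far as the peak lay outside annotated exons. They are read from mm9, 5′ to 3′ on the strand of the gene, and run up to the base before the TSS unless the peak ended earlier. For *Ccna2*, whose nearest peak lay almost wholly in an annotated first exon, only a stretch of 30 bases is shown. Capitals mark matches to the 13 short motifs described further on.
Ccnd2, chr6:127101067-127101202, minus strand: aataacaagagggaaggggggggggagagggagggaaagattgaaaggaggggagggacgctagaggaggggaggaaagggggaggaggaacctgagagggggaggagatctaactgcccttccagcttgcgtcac
Ccnd3 downstream promoter, chr17:47730257-47730415, plus strand: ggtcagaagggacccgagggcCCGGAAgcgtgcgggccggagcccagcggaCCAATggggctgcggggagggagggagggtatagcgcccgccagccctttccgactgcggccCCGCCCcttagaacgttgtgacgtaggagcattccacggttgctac
Ccne1, chr7:38892641-38892840, minus strand: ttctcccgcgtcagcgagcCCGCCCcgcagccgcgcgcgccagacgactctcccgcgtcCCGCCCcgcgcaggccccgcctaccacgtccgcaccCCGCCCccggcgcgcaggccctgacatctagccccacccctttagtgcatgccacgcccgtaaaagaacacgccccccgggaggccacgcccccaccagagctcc
Ccne2 upstream peak, chr4:11118281-11118480, plus strand: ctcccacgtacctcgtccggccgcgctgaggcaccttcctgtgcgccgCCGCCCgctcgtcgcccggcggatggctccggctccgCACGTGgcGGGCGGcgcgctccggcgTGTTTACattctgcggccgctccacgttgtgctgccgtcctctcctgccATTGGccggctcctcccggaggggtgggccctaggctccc
Ccna2 stretch, chr3:36470949-36470978, minus strand: tctggTGACGTCAcggactccggacgccct
Ccnb1, chr13:101556526-101556714, minus strand: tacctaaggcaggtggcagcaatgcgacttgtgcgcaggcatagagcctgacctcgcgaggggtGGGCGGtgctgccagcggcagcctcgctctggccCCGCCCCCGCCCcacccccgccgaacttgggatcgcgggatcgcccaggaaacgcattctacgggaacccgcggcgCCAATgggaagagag
Ccnb2, chr9:70269362-70269528, minus strand: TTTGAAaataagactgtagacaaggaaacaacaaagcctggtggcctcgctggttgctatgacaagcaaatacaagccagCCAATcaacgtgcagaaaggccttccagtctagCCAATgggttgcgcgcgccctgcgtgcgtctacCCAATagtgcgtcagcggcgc
They show a range of composition. The *Ccnd2* sequence is rich in purines, with 2 CpG dinucleotides in 136 bases and no motif match. The *Ccne1* sequence holds 27 CpG dinucleotides in 200 bases.

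For *Ccna1* and *Ccnb3*, which had no gene-proximal peak, the 120 bases before the TSS of the longest transcript are shown for comparison, with capitals used in the same way.
Ccna1, chr3:54858978-54859097, minus strand: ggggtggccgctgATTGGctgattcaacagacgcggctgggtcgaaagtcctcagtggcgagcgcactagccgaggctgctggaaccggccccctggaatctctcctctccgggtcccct
Ccnb3, chrX:6618746-6618865, minus strand: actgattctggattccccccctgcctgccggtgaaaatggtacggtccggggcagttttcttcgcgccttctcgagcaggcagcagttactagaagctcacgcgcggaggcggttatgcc
They held 9 and 10 CpG dinucleotides respectively.

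Among the D-type cyclins, *Ccnd2* and *Ccnd3* had a BAP1 peak at their promoters, and none was listed at that of *Ccnd1*. *Ccnd2* lies on the minus strand of chromosome 6, from 127075797 to 127101066, and has a single annotated TSS. The middle of its peak, at 127101003 to 127101202, lay 36 bp upstream of that TSS, and the peak covered the TSS and the start of exon 1. A pair of further peaks lay 1458 and 3965 bp upstream, further than 1 kb from every annotated TSS. *Ccnd2* thus had 3 peaks in a row that ran upstream from its TSS.

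*Ccnd3* is transcribed from the plus strand of chromosome 17 (47642000 to 47736632). It has 2 annotated protein-coding start sites 88416 bp apart, and each had its own BAP1 peak. At the upstream start, at 47642000, the middle of the peak lay 44 bp downstream. At the downstream start, at 47730416, it lay 60 bp upstream. Both peaks covered their TSS. Between the start sites, 3 peaks lay in an intron of the long transcript, 3074, 6885 and 16770 bp after the upstream TSS.

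*Ccnd1* lies on the minus strand of chromosome 7, from 152115836 to 152125774. The nearest peak to it lay 23098 bp downstream of its closest TSS, that of a transcript with a retained intron, and 24770 bp downstream of the TSS of its protein-coding transcript. That peak sat 1 bp upstream of a TSS of *Oraov1*, the neighbouring gene, and within 1 kb of the start of a microRNA gene listed as AC161763.1. On the other side, the first peak lay 345840 bp upstream, at *Tpcn2*. *Ccnd1* was the unbound cyclin with the nearest peak, but that peak belonged to the promoter of another gene.

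Both E-type cyclins had gene-proximal peaks, in different arrangements. *Ccne2* is transcribed from the plus strand of chromosome 4 (11118498 to 11131926), with 7 annotated TSSs. Its nearest peak, at 11118763 to 11118962, had its middle 6 bp downstream of the TSS at 11118856, the smallest distance of the 10 cyclins when all annotated TSSs are used. This TSS is that of a transcript without a coding sequence. From protein-coding TSSs the signed distance was -11 bp (upstream), and with only the TSS of the longest transcript it was -121 bp, so that *Ccnd2*, at 36 bp, was the closest. A second peak, at 11118281 to 11118480, lay 118 bp upstream of the first annotated TSS, with 482 bp between the middles of both peaks. One peak of *Ccne2* thus lay just before its first start sites and the other over the next group of start sites, as the plot of the promoters shows.

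*Ccne1* lies on the minus strand of chromosome 7, from 38883003 to 38892553. The middle of its single gene-proximal peak, at 38892641 to 38892840, lay 187 bp upstream of the most upstream TSS. It was the only bound cyclin whose nearest peak did not cover a TSS. The near edge of the peak stood 88 bp before the TSS.

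The A-type cyclins were split between *Ccna2*, the form of dividing somatic cells, and *Ccna1*, known mainly from the male germ line. *Ccna2* lies on the minus strand of chromosome 3, from 36463788 to 36471072. A peak at 36470874 to 36471073 had its middle 87 bp upstream of a TSS at 36470886. The same middle lay 99 bp downstream of the TSS of the protein-coding transcript, at 36471072, so whether this peak is called upstream or downstream rests on the transcript chosen. A second peak lay 212 bp upstream of the protein-coding TSS, at 36471185 to 36471384, and the middles of both were 311 bp apart.

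*Ccna1* lies on the minus strand of the same chromosome, from 54849391 to 54858977, with 1 annotated TSS. Its nearest peak lay 247203 bp downstream, 61 bp upstream of a TSS of *Rfxap*. In the upstream direction no peak was listed for 2202918 bp. *Ccna1* thus stood in a stretch of 2.45 Mb without a listed peak, and 15.5% of protein-coding genes were further from a peak than *Ccna1*.

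Of the B-type cyclins, *Ccnb1* and *Ccnb2*, the mitotic partners of CDK1, each had 1 gene-proximal peak. For *Ccnb1*, on the minus strand of chromosome 13 from 101548605 to 101556525, the middle of the peak lay 89 bp upstream of the most upstream of 7 TSSs. For *Ccnb2*, on the minus strand of chromosome 9 from 70255496 to 70269361, it lay 67 bp upstream of the only annotated TSS. Both peaks covered the TSS and reached into exon 1. *Ccnb2* had no other peak within 50 kb.

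*Ccnb3*, a B-type cyclin known mainly from germ cells, lies on the minus strand of chromosome X, from 6556778 to 6618745. Its nearest peak lay 277774 bp upstream, 35 bp upstream of a TSS of *Clcn5*. On the downstream side the first peak lay 3125885 bp away. The stretch without a listed peak around *Ccnb3* measured 3.40 Mb, and 13.9% of protein-coding genes were further from a peak.

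Across the 7 bound cyclins, the distance from the TSS to the nearest peak had a median of 67 bp and a range of 6 to 187 bp, whereas all protein-coding genes with a gene-proximal peak had a median of 46 bp. Of these genes, 89.0% lay within 187 bp of a peak. The middle of the peak was upstream of the TSS at 5 bound cyclins and downstream at 2, beside 75.0% upstream over all such genes. The nearest peak covered a TSS at 6 of the 7, beside 77.7%. None of the 7 peaks lay within 1 kb of a TSS of another gene. The 1 kb window did not decide the count, since the bound cyclin farthest from its peak was *Ccne1* at 187 bp and the nearest of the others was *Ccnd1* at 23098 bp.

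**Figure D1:**
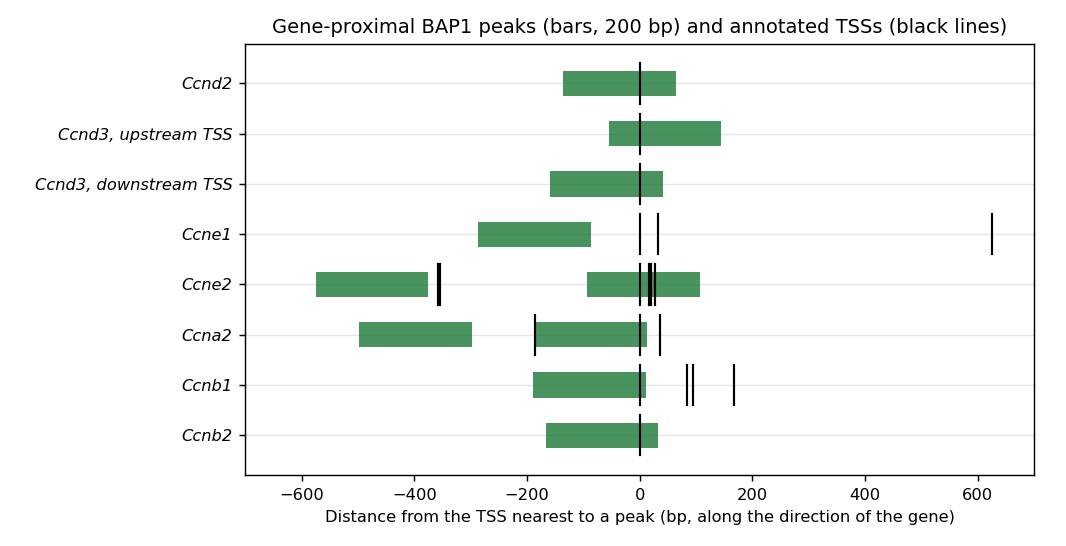
Gene-proximal BAP1 peaks of the bound cyclins, drawn to scale along the direction of each gene, with distance in bp from the TSS nearest to a peak on the horizontal axis. Each green bar is a peak of 200 bp and each black line an annotated TSS. The bars of *Ccne2* and *Ccna2* come as pairs, and the bar of *Ccne1* ends before its first TSS.

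More than 1 gene-proximal peak was listed for 3 of the 7 bound cyclins, namely *Ccna2*, *Ccnd3* and *Ccne2*, which together with the single peaks of the others made 10 peaks. Among protein-coding genes with any gene-proximal peak, 25.5% had more than 1. The pairs were of different kinds. Those of *Ccna2* and *Ccne2* were neighbours within a promoter, 311 and 482 bp apart, whereas those of *Ccnd3* stood at separate promoters, 88312 bp apart.

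Within 50 kb of any of their TSSs, the cyclins had 30 peaks in all, of which 10 were their own gene-proximal ones, 11 lay within 1 kb of a TSS of another gene and 9 lay further than 1 kb from every TSS. The number was 9 for *Ccnd3*, 6 for *Ccnb1*, 5 for *Ccnd2*, 3 each for *Ccna2* and *Ccne2*, 2 for *Ccne1*, 1 each for *Ccnb2* and *Ccnd1*, and 0 for *Ccna1* and *Ccnb3*. The median was 1 over all protein-coding genes and 3 over those with a gene-proximal peak, and 37.2% of protein-coding genes had no peak within 50 kb. At least 9 peaks, as at *Ccnd3*, were found near 3.62% of the genes with a gene-proximal peak. The window around *Ccnd3* is wider than most because its start sites lie far apart.

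The other peaks fell into those at neighbouring promoters and those away from any TSS. Around *Ccnb1*, 4 of the 5 further peaks were at *Cenph*, *Slc30a5* and, as a pair, *Mrps36*, and 1 lay 31794 bp downstream, away from every TSS. Those near *Ccnd3* included the promoter of *Taf8*, 2765 bp upstream, and that of *Med20* and *Bysl*, 18082 bp downstream of its second start. *Exosc9* held the further peak near *Ccna2*, *Trp53inp1* that near *Ccne2*, and *9630033F20Rik* a pair downstream of *Ccnd2*.

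*Ccnd2* and *Ccnd3* held most of the cyclins' peaks away from every TSS, and *Ccnd1* held none. Over the whole list, 10073 of the 13164 peaks lay within 1 kb of a TSS. *Ccnd3* was searched from both of its start sites, 88416 bp apart, which widened its window. Of 9 such peaks, 2 were near *Ccnd2*, 5 near *Ccnd3*, and 1 each near *Ccne1* and *Ccnb1*. At *Ccnd3* they were the 3 intronic peaks, 1 peak 20547 bp upstream and 1 peak 36092 bp downstream of the second start. The one near *Ccne1* lay 14377 bp downstream of its closest TSS, beyond the end of the gene.

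**Figure D2:**
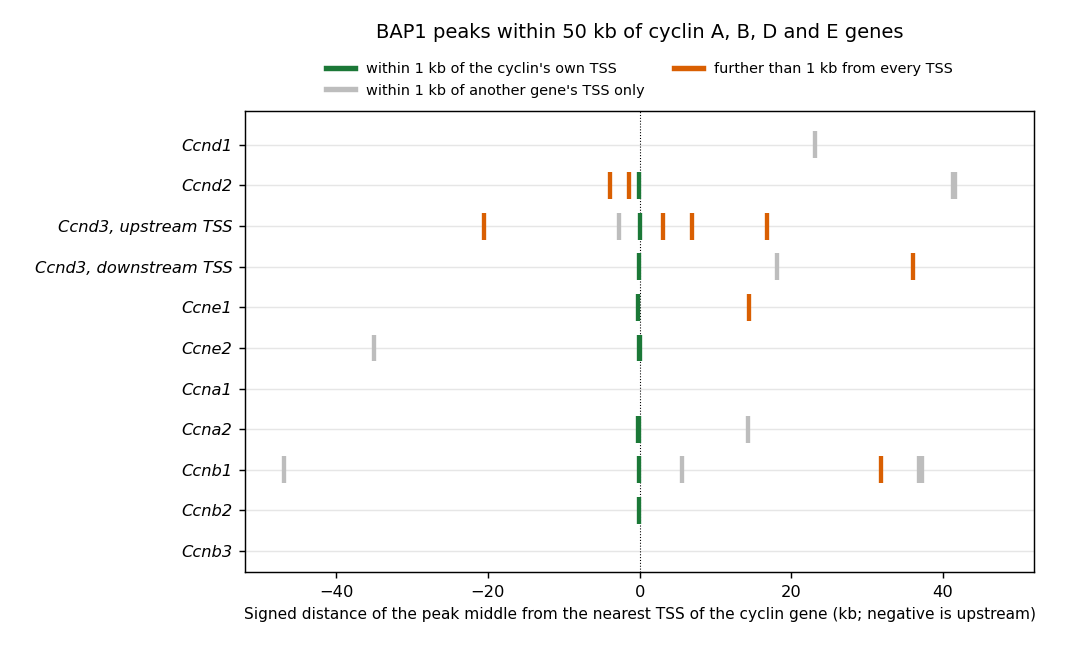
Each short vertical bar is a BAP1 peak, placed by the signed distance of its middle in kb from the nearest TSS of the cyclin gene, and *Ccnd3* is split into its start sites. Green bars at 0 mark the 7 bound cyclins, orange bars away from every TSS are most frequent in the rows of *Ccnd2* and *Ccnd3*, and the rows of *Ccna1* and *Ccnb3* are empty.

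The name of each peak carries a running number. The study describes its binding sites as ordered by their distance to the closest TSS. The numbers near the cyclins mostly followed this. Among the gene-proximal peaks of the cyclins they rose with distance, from 467 at 6 bp to 8841 at 212 bp, apart from a few out of order. The *Ccna2* peak at 87 bp had number 4192, below the 4911 of the *Ccnb2* peak at 67 bp. The *Ccnb1* peak at 89 bp had number 7634, above the 6810 of the *Ccne2* peak at 118 bp. The 10 gene-proximal peaks of the cyclins had numbers from 467 (*Ccne2*) to 8841 (*Ccna2*, upstream peak), and the 9 peaks away from every TSS had numbers from 9742 to 11641. Over the whole list, the share of peaks within 1 kb of a TSS was 98.9% among the first 1317 peaks and 7.60% among the last 1316. The number was therefore not read as a measure of binding strength.

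Promoters of vertebrate genes differ in how many CpG dinucleotides they keep, and those rich in them are often called CpG islands. The CpG ratio, the number of CpG dinucleotides observed over that expected from the content of C and G, was computed from 500 bp before to 500 bp after the TSS. Its median was 0.771 over the protein-coding genes with a gene-proximal peak (quartiles 0.667 and 0.869) and 0.296 over those without (0.156 and 0.572). A gene-proximal peak was present at 71.0% of the protein-coding genes with a ratio above 0.6 and at 11.0% of those with a ratio of 0.6 or less.

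Within the family, the bound cyclins had ratios above those of the unbound ones, except for *Ccnd2* and the upstream start of *Ccnd3*. A ratio of 0.6 did not part bound from unbound cyclins. The unbound ones were above it at the start of the longest transcript, and *Ccnd2* and the upstream start of *Ccnd3* were below it. The ratio was 0.947 for *Ccna2*, 0.915 for *Ccne1*, 0.782 for *Ccne2*, 0.751 for *Ccnb1* and 0.738 for *Ccnb2*, all bound. It was 0.684 for *Ccna1*, 0.682 for *Ccnb3* and 0.667 for *Ccnd1*, all unbound, and 0.523 for *Ccnd2* and 0.473 for *Ccnd3*, both bound. The unbound cyclins thus lay in the middle of the family. At the start of the longest transcript they were all above 0.6, while 83.7%, 83.6% and 82.3% of the protein-coding genes without a gene-proximal peak had a ratio at or below those of *Ccna1*, *Ccnb3* and *Ccnd1*. *Ccnb3* has a further protein-coding start, 10683 bp downstream of the first, where the ratio was 0.0608.

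*Ccnd2* and *Ccnd3* were bound at a low ratio, at or below which only 8.00% and 5.77% of the protein-coding genes with a gene-proximal peak were found. For *Ccnd3* this held for the upstream start. Its downstream start, which had its own peak, had a ratio of 0.834. *Ccnb3* differed from the other cyclins in base composition, with 40.0% G and C around its TSS against 53.0% to 74.5% for the other cyclins.

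**Figure D3:**
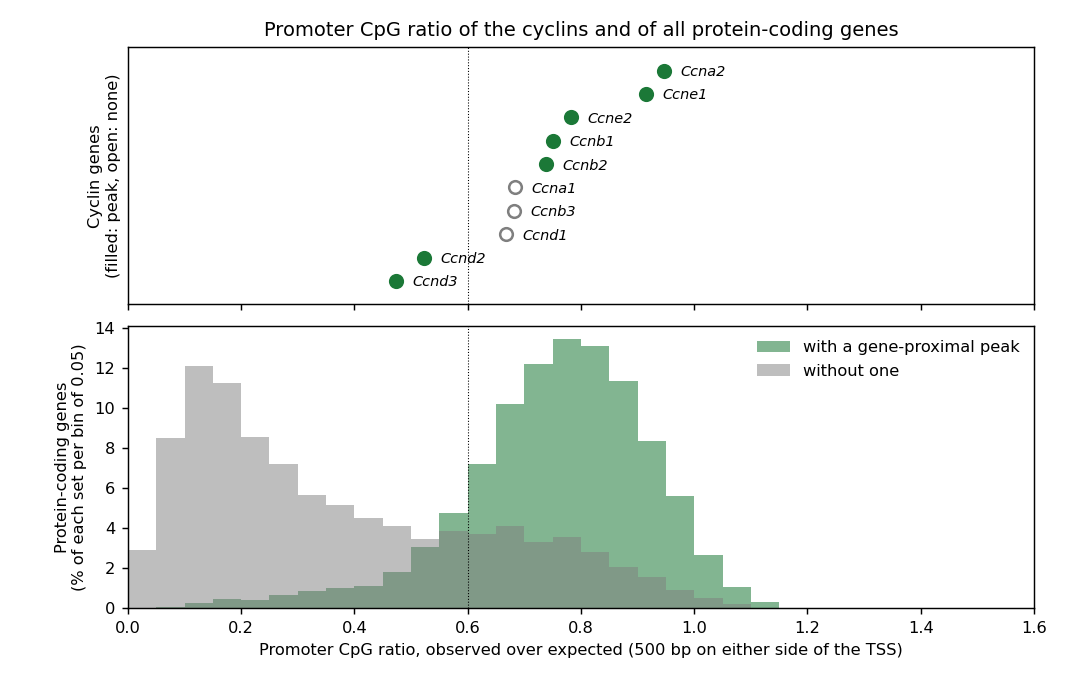
Promoter CpG ratio (observed over expected, no unit) of each cyclin in the upper panel, filled where a gene-proximal peak was listed, and in the lower panel of the protein-coding genes with (green) and without (grey) such a peak, as a percentage of each set per bin of 0.05. The dotted line is at 0.6, and the 3 open points of *Ccnd1*, *Ccnb3* and *Ccna1* lie between bound cyclins on either side.

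The 10 gene-proximal peaks were searched on both strands for the letters of 13 motifs, none of which contains another. These were the E2F site (any of TTTGGCGC, TTTCCCGC, TTTCGCGC and TTTGCCGC) and the cell cycle element CHR (its form TTTGAA, its form TTTAAA or its form TTCGAA), known from genes of G1/S and of G2/M respectively, the NF-Y box CCAAT, the GC box GGGCGG, and the ETS letters CCGGAA. The others were NRF1 (GCATGCGC), YY1 (AAGATGGCG), THAP11/ZNF143 (ACTACA), the cAMP response element CRE (TGACGTCA), the E-box CACGTG, FOX (GTAAACA), STAT (TTCNNNGAA) and the TATA box (TATAAA). A match is a string of letters and does not show that a factor binds there.

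The GC box matched in 8 of the 10 peaks, beside 59.5% of all 13164 peaks, and the NF-Y box in 5, beside 28.5%. The peaks with an NF-Y box were the nearest peaks of *Ccna2*, *Ccnb1* and *Ccnb2*, the downstream peak of *Ccnd3* and the upstream peak of *Ccne2*. In *Ccnb2* the box occurred 3 times on the strand of the gene, with first bases 87, 54 and 21 bp before the TSS, so that neighbouring boxes started 33 bp apart both times. These are the 3 runs of CCAAT in capitals in the *Ccnb2* sequence above. The same peak had the CHR letters TTTGAA in 2 places, first at its upstream edge and again from 4 bp after the TSS, and was the only one of the 10 with CHR, which matched in 9.45% of all peaks. Within 300 bp around the middle of the peak, CHR matched in 3 of the 10.

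The FOX letters matched in 3 of the 10 peaks, beside 2.49% of all peaks and 1.33% of the promoters with a gene-proximal peak. They stood in the upstream peaks of *Ccna2* and *Ccne2* and in the peak at the upstream start of *Ccnd3*. In the *Ccne2* sequence above they are read on the other strand, 106 bp before the first annotated TSS, and in *Ccna2* they began 273 bp before the protein-coding TSS. The upstream peak of *Ccna2* matched no other motif, and that of *Ccne2* also held an E-box and an NF-Y box.

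A single peak matched each of a further 5 motifs. *Ccna2* had the CRE, shown in the stretch above, from 87 bp before the TSS at 36470886, and the letters of THAP11/ZNF143, which matched in 2.80% and 6.34% of all peaks. The ETS letters, in 24.8% of all peaks, were found in the downstream peak of *Ccnd3*, and the NRF1 letters, in 4.82%, in the nearest peak of *Ccne2*. The E-box, in 7.04%, was that of the upstream peak of *Ccne2*.

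No match in any of the 10 peaks was found for E2F (2.74% of all peaks), YY1 (2.95%), STAT (3.93%) or the TATA box (4.73%). Only exact letters were searched and these shares are low, so the lack of a match does not show that such a site is missing. The peak of *Ccnd2* matched none of the 13 motifs, and that of *Ccne1* only the GC box, with 3 matches.

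In the 200 bases before the TSS, the unbound *Ccna1* had 1 NF-Y box and *Ccnb3* the CHR letters in 2 places. Over all protein-coding promoters of this length, the NF-Y box was found in 34.4% of those with a gene-proximal peak and 27.9% of those without, and the CHR letters in 12.0% and 23.2%.

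**Figure D4:**
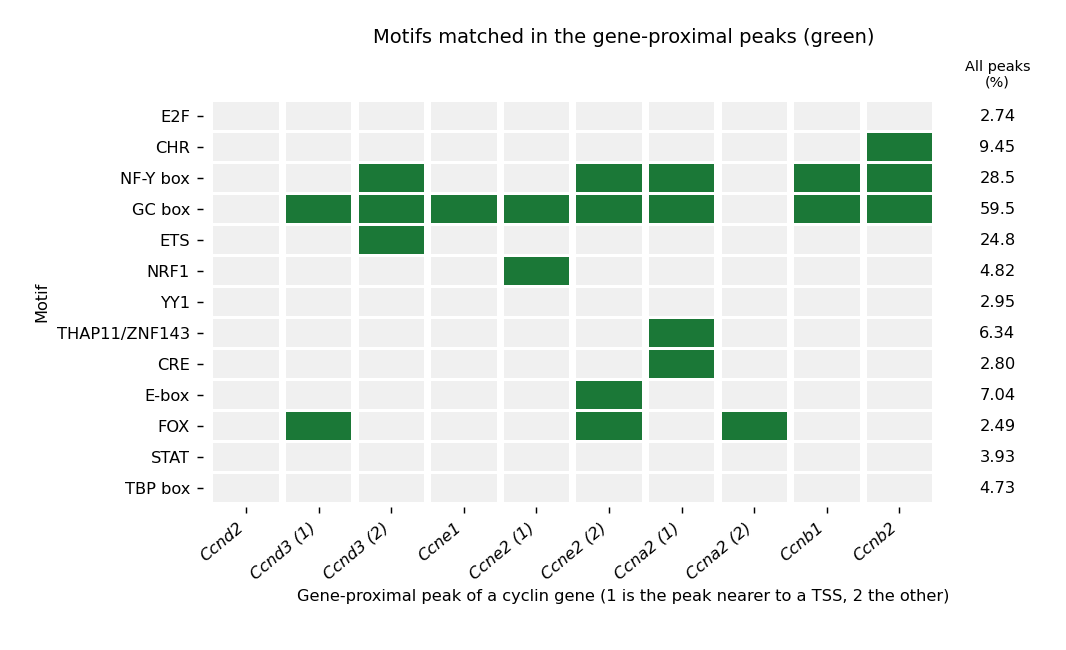
Motifs (rows) matched on either strand in each of the 10 gene-proximal peaks of the cyclins (columns), with a green square where a motif matched and the percentage of all 13164 peaks with a match on the right. Where a gene has a pair of peaks, (1) is the peak nearer to a TSS. The row of the GC box has 8 green squares and that of the NF-Y box 5, and the column of *Ccnd2* has none.

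Genes that act with these cyclins, and cyclins of other types, were listed for comparison. A gene-proximal peak was present at 34 of these 41, or 82.9%, beside the 39.6% of all protein-coding genes. Without the other cyclins it was 22 of 26. Of the CDK partners, *Cdk1* had a peak 85 bp upstream of its TSS, *Cdk2* 79 bp upstream and *Cdk4* 13 bp downstream. *Cdk6*, the other partner of the D-type cyclins, had its nearest peak 1695 bp upstream, outside the window of 1 kb.

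Every listed gene had a gene-proximal peak among the 3 subunits of the CDK-activating kinase, the 2 CKS subunits that bind CDKs, the 3 activating Cdc25 phosphatases, the 2 inhibitory kinases and the 5 genes of cyclin degradation. Among the CDK inhibitors it was 4 of 7. Those without one were *Cdkn1c*, whose nearest peak lay 88025 bp upstream, and *Cdkn2a* and *Cdkn2b*, which lie side by side and whose nearest peak, 17415 and 46260 bp downstream, was the same one. Of 16 cyclins of other types, 13 had one, and *Ccnk* (6724 bp upstream), *Ccno* (47298 bp downstream) and *Ccnjl* (95004 bp upstream) did not. Cyclin H, a subunit of the CDK-activating kinase, was counted under both roles and once in the total.

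**Figure D5:**
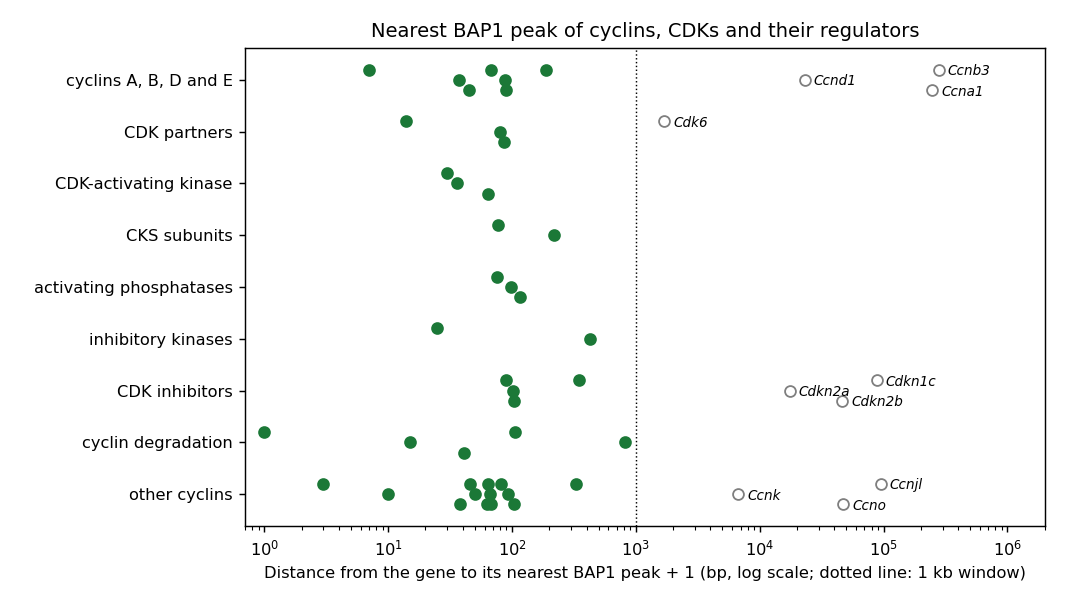
Distance in bp (plus 1, log scale) from each gene to its nearest BAP1 peak, for the cyclins of types A, B, D and E and for the listed CDKs, regulators and other cyclins, by role. Filled points lie within the 1 kb window (dotted line), and the named open points are the 3 cyclins and the 7 other genes without a gene-proximal peak.

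Of 10 genes that mark an IL-3-dependent B cell precursor, 3 had a gene-proximal peak, namely *Il3ra*, *Csf2rb* and *Vpreb1*, beside 39.6% of all protein-coding genes. *Ptprc*, *Kit*, *Cd79a*, *Cd79b*, *Igll1*, *Pax5* and *Ebf1* had none. A peak list does not show which genes are expressed, so the identity of the line could not be checked with it.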

How the data were processed

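BAP1 ChIP-Seq of Ba/F3 cells was analysed from 1 list of peaks that covers the anti-BAP1 and the anti-FLAG sample. The 4 input and 3 H2AK119ub samples, and the study's RNA-Seq, were not analysed here. The study called its peaks against input DNA from the same cells. According to the submitters' processing notes, the authors used Bowtie 1.0.0 for mapping to mm9 and MACS 1.4.2 for calling peaks. The deposited file gives only where a peak starts and ends in bp, all 200 bp wide, with no score, height or p-value. The threshold of the caller and the rule that joined the samples are not given in the sources used here. Another threshold could change which peaks are listed and the shares of bound genes, and none was tried. The depth is unknown, and 0 columns could not be mapped to a sample.

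Peaks were placed on GENCODE M1 by their middle (start plus 100). The distance is the smallest over all TSSs of a gene, signed along the gene. CpG ratios cover 500 bp before to 500 bp after the TSS nearest to the peak, or of the longest transcript where no peak was gene-proximal. Motifs were matched as exact letters on both strands. The promoter sequence of *Ccnd1* is not reported here. No test was made, since there is 1 list without replicates, and counts are given beside the share over all genes or peaks. The members and lists were chosen with earlier results of these data known. The genes named are all 10 cyclins, the CDK partners, the listed genes without a gene-proximal peak, those whose TSS lies within 1 kb of a peak described for a cyclin, and the marker genes.

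Alternatives were other windows, the edge of the peak, other choices of TSS, merging of peaks within 500 bp, 300 bp around the peak for motifs and 250 bp for CpG ratios. RefSeq start sites were added after the data were seen. Distances were checked with bedtools 2.31.1 at random positions around the listed peaks, and motif matching on random sequence with planted motifs. Python 3.11.15 and matplotlib 3.10.9 were used.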

Additional observations from a re-analysis of the deposited data

How the results depend on the processing

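The count of 7 bound cyclins was the same with a window of 500 bp or 2 kb, the nearest edge of the peak, TSSs of protein-coding transcripts, 1 TSS per gene, or merged peaks. The bound genes of the pathway list numbered from 32 to 35. The share of protein-coding genes with a gene-proximal peak moved from 39.6% to 38.6% with 500 bp, 40.4% with 2 kb and 37.6% with 1 TSS per gene. With a limit of 20 kb in place of 50 kb, the unbound cyclins with a nearest peak inside the limit went from 1 to 0. The median CpG ratio of the cyclins rose from 0.711 to 0.850 with 250 bp on either side of the TSS, and *Ccnd2* (0.443) and *Ccnd3* (0.587) still had a ratio below 0.6. The side of the peak changed for *Ccna2*, from 87 bp upstream to 99 bp downstream with 1 TSS per gene and with protein-coding TSSs alike, and for *Ccne2*, from 6 bp downstream to -121 bp and -11 bp (upstream) under these choices, so that with 1 TSS per gene *Ccnd2* had the closest peak. Within 300 bp, CHR matched in 3 peaks in place of 1. With RefSeq start sites, an alternative chosen after seeing the data, 6 cyclins could be placed on mm9, and 4 of them had a gene-proximal peak, as with GENCODE. All 6 stayed on the same side of the window. *Ccna2*, *Ccnd1*, *Ccnd2* and *Ccne2* were not in that table. A stricter peak threshold could not be tried, since the list has no score. No paired analysis was possible because no result comes from a test, and each immunoprecipitation behind the list is a single sample. Unknown depth limits what the absence of a peak can show.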
